A study of Mus musculus with 12 samples.

Results

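The 9 genes described here encode the transcription factors that direct intestinal epithelial cells into the secretory lineages: Atoh1, Gfi1, Spdef, Neurog3, Neurod1, Insm1, Pax4, Pax6 and Nkx2-2. They were chosen by name and are 9 of the 23366 genes counted in each of 12 RNA-seq libraries of mouse small intestine. All 9 were listed for every library, Atoh1 with 0 counts in E12.5 replicates 2 and 3, and all 9 passed the filter on low counts. Their levels were followed over 4 groups of 3 libraries, with the question of when each factor comes on and in which adult population it is carried.

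In the intestinal epithelium, cells that escape Notch signalling switch on Atoh1, a basic helix-loop-helix factor required for the goblet, Paneth and enteroendocrine cells. Gfi1, a zinc-finger repressor, and Spdef, an ETS-domain factor, act after Atoh1 in the goblet and Paneth branch, where Gfi1 holds down Neurog3. Neurog3 is expressed for a short time in endocrine progenitors and is followed by Neurod1, Insm1, Pax4, Pax6 and Nkx2-2, which set the hormone-producing fates and are shared with the islet cells of the pancreas.

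All animals were of a mixed C57BL/6 CD1 background. The E12.5 and E14.5 groups were epithelial cells of embryos at those embryonic days, sorted as living cells that carried EpCAM and lacked CD31 and CD45. Each E12.5 library came from a pool of 20 embryos, and the pool size at E14.5 is not given in the sources used here. Both adult groups came from 2-month-old Lgr5EGFP-Cre-ERT males (postnatal day 60), with 1 gut per library. The stem-cell group (ISC) was taken from crypt cells with the brightest Lgr5-EGFP signal, the reporter of crypt base stem cells. The adult enterocyte group (AE) was sorted from detached villi by the same 3 surface proteins as the embryonic cells, a gate that also admits villus goblet, enteroendocrine and tuft cells. For the 6 embryonic libraries, title and age label name opposite stages. The titles were followed, so the sign of every change between E12.5 and E14.5 rests on them. If the age labels held instead, the adult comparisons with E12.5 and with E14.5 would change places. Nothing in the labels says whether embryonic pools shared litters or whether an adult gut gave both an ISC and an AE library, so p-values measure the spread between these libraries.

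Gene counts totalled 12587626 to 45190749 per library. Crypt stem-cell markers summed to 7539 to 8258 normalised counts per 1000000 (CPM) in ISC and to 787 to 938 CPM in AE, and enterocyte markers to 33140 to 72300 CPM in AE and 1041 to 2063 CPM in ISC. The 8 epithelial markers were present in every group. Mesenchyme markers summed to 172 to 216 CPM at E12.5, 333 to 416 CPM at E14.5 and at most 10.1 CPM in the adult groups, and immune markers to between 31.7 and 75.3 CPM in all groups. Of 14 mesenchyme markers tested, 13 were called higher at E14.5 than at E12.5 and 1 lower, with a median log2 change of 3.05. The 1 lower was Vim, which fell from 160 to 72.6 CPM. The part of mesenchyme cells in the E14.5 levels of the factors was not tested. Reads listed as not uniquely aligned were above 0 only in the E12.5 and ISC libraries. E14.5 against E12.5, ISC against E14.5 and AE against ISC thus each cross a difference in how reads were listed. That difference cannot be told apart from the groups. The pairs E12.5 with ISC and E14.5 with AE were listed alike.

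The sequences just before the transcription start of 4 members are shown because these genes rose together at E14.5 and parted in the adult, and because Atoh1, Neurog3 and Neurod1 proteins themselves bind the 6-base E-box CANNTG. Each is the 250 bases before the RefSeq start site on GRCm38.p6, 5′ to 3′ on the gene's own strand, with every CANNTG match in capitals. Atoh1 lies at chr6:64728875-64729124 on the plus strand, Neurog3 at chr10:62132840-62133089 on the plus strand, Neurod1 at chr2:79456637-79456886 on the minus strand and Nkx2-2 at chr2:147186403-147186652 on the minus strand.
Atoh1: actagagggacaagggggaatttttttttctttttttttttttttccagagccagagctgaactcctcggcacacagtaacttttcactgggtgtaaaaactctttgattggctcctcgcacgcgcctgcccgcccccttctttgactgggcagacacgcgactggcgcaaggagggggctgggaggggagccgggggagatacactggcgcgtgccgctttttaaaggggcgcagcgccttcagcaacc
Neurog3: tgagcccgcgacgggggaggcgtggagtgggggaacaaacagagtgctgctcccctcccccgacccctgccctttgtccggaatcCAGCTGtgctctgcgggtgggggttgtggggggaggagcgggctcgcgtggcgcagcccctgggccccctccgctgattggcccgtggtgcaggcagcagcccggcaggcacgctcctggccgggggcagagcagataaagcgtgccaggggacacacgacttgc
Neurod1: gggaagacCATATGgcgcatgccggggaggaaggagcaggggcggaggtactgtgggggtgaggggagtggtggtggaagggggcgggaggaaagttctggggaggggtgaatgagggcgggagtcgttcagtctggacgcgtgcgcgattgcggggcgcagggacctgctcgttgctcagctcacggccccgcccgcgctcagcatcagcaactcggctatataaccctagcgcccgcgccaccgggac
Nkx2-2: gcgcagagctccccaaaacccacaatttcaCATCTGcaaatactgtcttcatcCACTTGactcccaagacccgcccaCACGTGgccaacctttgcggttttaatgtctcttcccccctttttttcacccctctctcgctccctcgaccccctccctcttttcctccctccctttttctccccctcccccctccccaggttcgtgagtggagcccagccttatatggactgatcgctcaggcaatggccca

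No CANNTG lies in the Atoh1 window. The Neurog3 window holds 1 match, CAGCTG, starting 165 bases before the start site. The Neurod1 window holds 1, CATATG, at 242 bases, and the Nkx2-2 window holds 3, CATCTG at 220 bases, CACTTG at 197 bases and CACGTG at 173 bases. Of 32851 RefSeq promoter windows of this length, 66.2% hold at least 1 CANNTG, 13% hold CAGCTG and 14.4% hold CAGATG, counting both strands and with CAGCTG and CAGATG also counted as CANNTG. Of the 9 members, 7 had a promoter entry, with 9 start sites in all. Spdef had no match, Gfi1 had 1 at each of its 2 start sites and Pax6 had 1 at the second of its listed start sites. A match describes these letters only.

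The levels of the 9 factors had a common start and then divided, with ISC and AE as adult populations of the same age, not successive times. From E12.5 to E14.5, 8 of the 9 rose and none fell, Pax6 being the member that did not pass the test. In ISC, Atoh1, Gfi1 and Spdef overlapped with their E14.5 libraries and did not pass the test, while 5 of the 6 endocrine factors were lower than at E14.5. In AE, Atoh1, Spdef, Neurod1 and Pax6 stood above ISC, and Neurog3 alone fell below it. The summed level of all 9 factors was 11.7 ± 2.53 CPM (SD, n = 3) at E12.5, 55.5 ± 9.50 CPM at E14.5, 28.5 ± 8.46 CPM in ISC and 86.7 ± 9.08 CPM in AE. In such bulk samples, fewer cells of a type and less RNA per cell cannot be told apart.

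**Figure D1:**
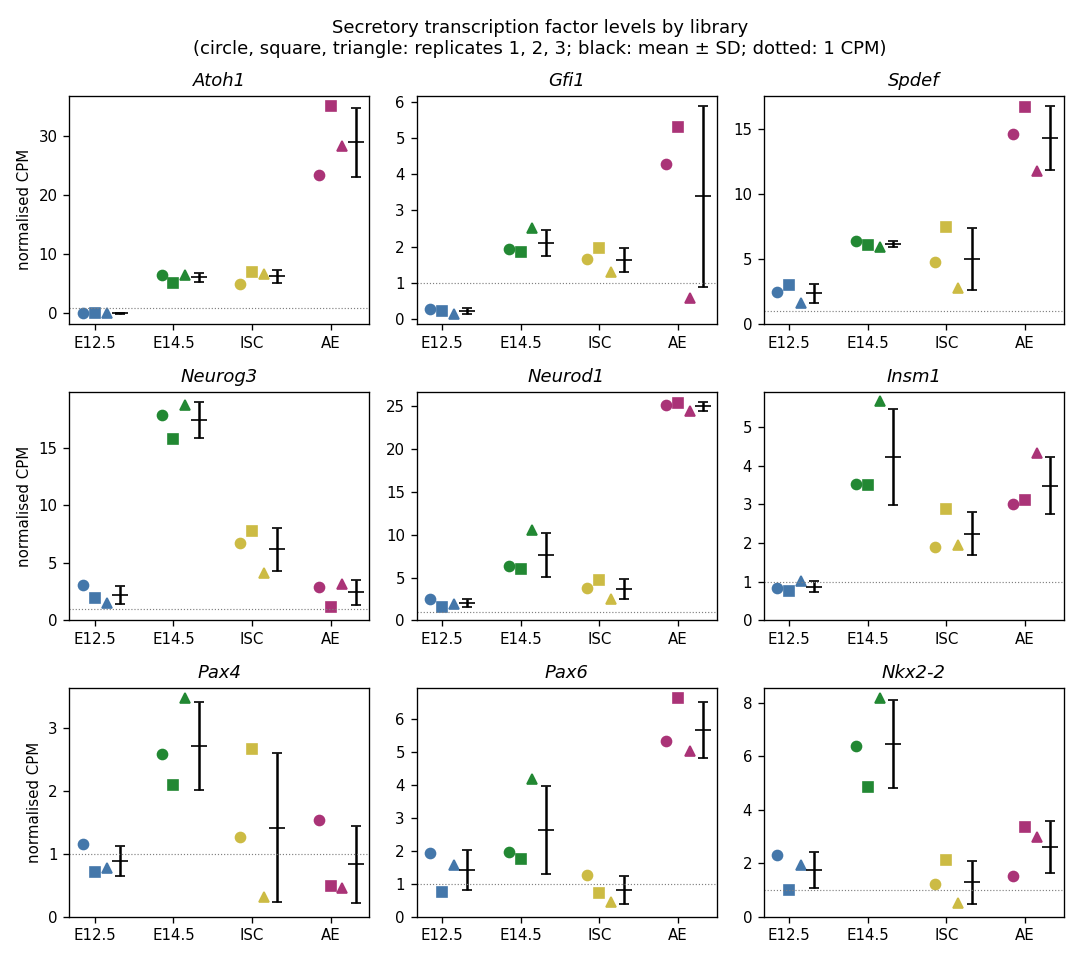
Normalised level (CPM, linear axis from near 0 in each panel) of each of the 9 factors in the 12 libraries of E12.5, E14.5, ISC and AE, with circle, square and triangle for replicates 1, 2 and 3, the black bar for mean ± SD of 3 libraries and the dotted line at 1 CPM. Neurog3 is highest in the 3 E14.5 libraries (15.7 to 18.7 CPM), while Atoh1, Spdef, Neurod1 and Pax6 are highest in AE.

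Counted against all genes, the E14.5 step was one-sided. By edgeR's quasi-likelihood test with Benjamini-Hochberg adjustment at 0.05, 8 of 9 members were higher and 0 lower at E14.5 than at E12.5, where 23.6% of the 15342 genes tested were called higher and 25.6% lower. The median log2 change was 1.91 over the members and -0.02 over all genes. In ISC against E14.5, 0 members were higher and 5 lower, beside 30.2% of all genes called higher and 30.6% lower, with medians of -0.95 and -0.0048. In AE against ISC, 4 were higher and 1 lower, beside 32.6% and 35.2% of all genes, with medians of 1.12 and -0.05. The share of members called higher at E14.5 was thus far above that of all genes, and the shares in AE were closer to those of all genes. Leaving out any 1 library gave 7 to 8 members higher at E14.5, 4 to 7 lower in ISC and 4 to 6 higher in AE.

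**Figure D2:**
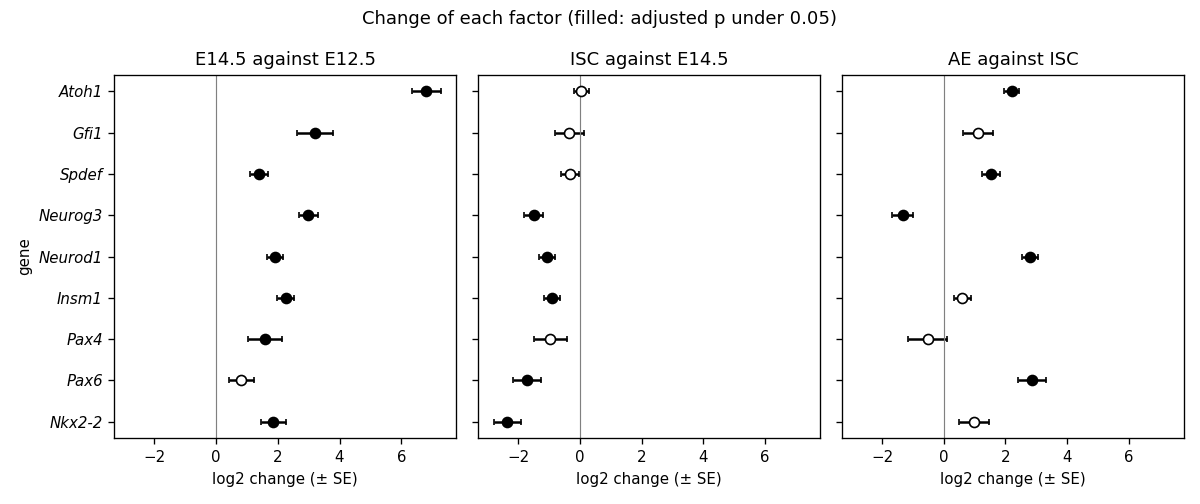
Fitted log2 change ± SE of each factor in E14.5 against E12.5, ISC against E14.5 and AE against ISC, on a common linear axis, with filled points for an adjusted p under 0.05. In the first comparison 8 points are filled to the right of 0, in the ISC comparison 5 are filled to the left, all of them endocrine factors, and in AE Neurog3 is filled to the left opposite Atoh1, Spdef, Neurod1 and Pax6.

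Onset was read as the group in which all 3 libraries reached 1 CPM. At E12.5, 3 of 9 members were on: Spdef, Neurog3 and Neurod1. By that measure 83.1% of all genes tested were on at E12.5. At E14.5 all 9 members were on, beside 81.8% of genes. In ISC 6 were on, beside 78.3% of genes: Atoh1, Gfi1, Spdef, Neurog3, Neurod1 and Insm1. In AE 7 were on, beside 77.3% of genes: Atoh1, Spdef, Neurog3, Neurod1, Insm1, Pax6 and Nkx2-2. The E12.5 count depended on the level chosen and on 1 library. It was 7 at 0.5 CPM, 0 at 2 CPM and 5 at 1 CPM without E12.5 replicate 2, in which Pax6 and Nkx2-2 stood at 0.755 and 0.977 CPM. At 0.5 CPM the members still under the level at E12.5 were Atoh1 and Gfi1. The adult counts moved too, with 6 to 8 members on in ISC and 7 to 8 in AE when 1 library was left out. In AE, Gfi1 was under 1 CPM only in replicate 3 (0.571 CPM). At E14.5 the lowest libraries of Gfi1 and Pax6 had 1.85 and 1.74 CPM, under the level of 2 CPM.

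Atoh1, the factor at the head of the secretory programme, was nearly absent at E12.5 and present in every later library. E12.5 replicate 1 had 0.128 CPM, from the only 4 counts in the group, and replicates 2 and 3 had 0. The E14.5 libraries had 6.58, 5.23 and 6.55 CPM, the ISC libraries 5.01, 7.08 and 6.74 CPM, and the AE libraries 23.5, 35.1 and 28.4 CPM. E14.5 and ISC overlapped, both lay far above E12.5, and AE lay above all other libraries. The rise at E14.5 was 6.82 ± 0.46 on the log2 scale (SE, adjusted p = 8.16e-08, edgeR), or 112.7-fold, and rested on 4 counts in the lower group. Without E12.5 replicate 1, both remaining libraries were at 0 and the level at E14.5 was at least 101.5-fold higher than a floor of 3 counts over those libraries. ISC and E14.5 did not differ by the test, with a log2 change of 0.05 ± 0.25 (adjusted p = 0.881) whose sign turned under relative log expression and upper-quartile scaling, DESeq2 and 3 of the 6 omissions of a library of these groups. In AE the level was 4.59-fold above ISC (log2 2.20 ± 0.25, adjusted p = 2.56e-06).

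Gfi1, the repressor of the goblet and Paneth branch, followed Atoh1 in its onset at a lower level. Its E12.5 libraries had 0.289, 0.222 and 0.147 CPM, its E14.5 libraries 1.94, 1.85 and 2.51 CPM, its ISC libraries 1.65, 1.96 and 1.31 CPM, and its AE libraries 4.28, 5.31 and 0.571 CPM. All later libraries exceeded E12.5, and AE replicate 3, with 5 counts, was far below the other two. The E14.5 rise was 9.21-fold (log2 3.20 ± 0.59, adjusted p = 0.000484). Neither ISC against E14.5 (log2 -0.35 ± 0.47, adjusted p = 0.535) nor AE against ISC (log2 1.12 ± 0.48, adjusted p = 0.0510) passed the test. Without AE replicate 3 the AE against ISC log2 change was 1.59 (adjusted p = 0.000293), and the change against E14.5 (log2 0.76, adjusted p = 0.134) then passed as well (adjusted p = 0.00131). With all 12 libraries, AE against ISC passed under relative log expression scaling (adjusted p = 0.0378), DESeq2 (adjusted p = 0.0486) and no filter (adjusted p = 0.0479).

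Spdef, which drives goblet and Paneth maturation, was the only member of this branch with all 3 E12.5 libraries above 1 CPM. Its libraries there had 2.44, 3.02 and 1.61 CPM. At E14.5 they had 6.38, 6.09 and 5.93 CPM, in ISC 4.75, 7.46 and 2.74 CPM, and in AE 14.6, 16.7 and 11.8 CPM. E14.5 lay above E12.5 and AE above all other libraries, and ISC spread from the E12.5 range to above E14.5. Spdef rose 2.62-fold at E14.5 (log2 1.39 ± 0.30, adjusted p = 0.00190) and stood 2.91-fold higher in AE than in ISC (log2 1.54 ± 0.30, adjusted p = 0.000372). ISC against E14.5 did not pass (log2 -0.31 ± 0.29, adjusted p = 0.378), but was lower without ISC replicate 2 (log2 -0.73, adjusted p = 0.0418).

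ISC replicate 2 was the highest ISC library for all members but Pax6, and replicate 3 the lowest for all but Atoh1 and Insm1. Products of mature secretory cells followed the same order in these libraries. So did enterocyte markers, with 1264, 2063 and 1041 CPM in ISC replicates 1, 2 and 3, so the order was not particular to secretory products. Paneth-cell products summed to 3501, 4186 and 2365 CPM in ISC replicates 1, 2 and 3, goblet-cell products to 2443, 2600 and 2360 CPM and enteroendocrine products to 292, 342 and 247 CPM. The part of these products in the ISC levels of the factors was not tested.

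Neurog3, the factor of endocrine progenitors, had its peak at E14.5. It was the member called lower both in ISC against E14.5 and in AE against ISC. Its E12.5 libraries had 3.05, 1.95 and 1.50 CPM, its E14.5 libraries 17.8, 15.7 and 18.7 CPM, its ISC libraries 6.72, 7.74 and 4.09 CPM, and its AE libraries 2.91, 1.14 and 3.20 CPM. The E14.5 libraries lay above all others, ISC lay between, and E12.5 and AE overlapped. Neurog3 rose 7.94-fold at E14.5 (log2 2.99 ± 0.32, adjusted p = 4.95e-06). ISC was 2.83-fold lower than E14.5 (log2 -1.50 ± 0.30, adjusted p = 0.000576), and AE was 2.51-fold lower than ISC (log2 -1.33 ± 0.34, adjusted p = 0.00333). These 3 calls held under every scaling, test and omission of a library that was run. In the GENCODE M21 annotation, 13.3% of the gene's 50-base stretches are shared with Fam241b on the other strand, named 2010107G23Rik in the deposited tables. That gene had 232 counts at E12.5, 877 at E14.5, 402 in ISC and 556 in AE, summed over 3 libraries. With the strand setting not given in the sources used here, reads of this pair cannot be told apart where they overlap.

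Neurod1, which acts just after Neurog3 and stays on in mature endocrine cells, rose at E14.5, was lower in ISC and highest in AE. Its libraries had 2.47, 1.55 and 1.94 CPM at E12.5, 6.35, 5.99 and 10.6 CPM at E14.5, 3.74, 4.74 and 2.44 CPM in ISC, and 25.2, 25.4 and 24.4 CPM in AE. The AE libraries lay close together and stood above all others, and only ISC replicate 3 reached into the E12.5 range. Neurod1 rose 3.76-fold at E14.5 (log2 1.91 ± 0.27, adjusted p = 5.98e-05), was 2.10-fold lower in ISC (log2 -1.07 ± 0.26, adjusted p = 0.00303) and 6.93-fold higher in AE than in ISC (log2 2.79 ± 0.27, adjusted p = 5.41e-07). Of its 50-base stretches, 9.66% are shared, among them with Cerkl on the same strand, which had 62 counts in AE and at most 8 in any other group.

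Insm1, a zinc-finger factor of early endocrine cells, rose at E14.5 and was lower in ISC. Its libraries had 0.834, 0.755 and 1.03 CPM at E12.5, 3.54, 3.49 and 5.67 CPM at E14.5, 1.90, 2.89 and 1.96 CPM in ISC, and 3.01, 3.10 and 4.34 CPM in AE. Every later library exceeded E12.5, and those of E14.5 and AE overlapped. The E14.5 rise was 4.77-fold (log2 2.25 ± 0.29, adjusted p = 2.28e-05). ISC was 1.86-fold lower than E14.5 (log2 -0.90 ± 0.27, adjusted p = 0.00986), a call lost without E14.5 replicate 3 (log2 -0.65, adjusted p = 0.0597). AE lay above ISC in every library but did not pass (log2 0.60 ± 0.28, adjusted p = 0.0730), except under relative log expression scaling (adjusted p = 0.0459) and without ISC replicate 2 (log2 0.82, adjusted p = 0.0351).

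Pax4 and Pax6 are paired-domain homeobox factors of endocrine subtypes, and against E14.5 the AE libraries were lower in Pax4 and higher in Pax6. Pax4 had 1.16, 0.711 and 0.770 CPM at E12.5, 2.59, 2.09 and 3.47 CPM at E14.5, 1.27, 2.67 and 0.304 CPM in ISC, and 1.54, 0.490 and 0.457 CPM in AE. E14.5 was the only group with all 3 libraries above 2 CPM, and ISC spread across nearly the whole range. The E14.5 rise was 3.01-fold (log2 1.59 ± 0.55, adjusted p = 0.0265). It missed the threshold on leaving out E12.5 replicate 2 (adjusted p = 0.0854), E12.5 replicate 3 (0.0845), E14.5 replicate 1 (0.0557) and E14.5 replicate 3 (0.0843). Neither ISC against E14.5 (log2 -0.95 ± 0.54, adjusted p = 0.143) nor AE against ISC (log2 -0.52 ± 0.62, adjusted p = 0.472) passed. Without ISC replicate 2 the first was -1.86 (adjusted p = 0.0161) and the other turned to 0.36.

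Pax6 was the member with no call at E14.5 and the largest fitted excess of AE over ISC among the 9. Its libraries had 1.93, 0.755 and 1.58 CPM at E12.5, 1.97, 1.74 and 4.18 CPM at E14.5, 1.27, 0.708 and 0.435 CPM in ISC, and 5.33, 6.62 and 5.03 CPM in AE. The embryonic groups overlapped, ISC lay below all E14.5 libraries, and AE lay above all others. E14.5 against E12.5 gave a log2 change of 0.82 ± 0.40 (adjusted p = 0.107). ISC was 3.29-fold lower than E14.5 (log2 -1.72 ± 0.46, adjusted p = 0.00488) and AE 7.28-fold higher than ISC (log2 2.86 ± 0.46, adjusted p = 6.88e-05). Its antisense gene Pax6os1 had 22 counts in AE and at most 2 in any other group.

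Nkx2-2, a homeobox factor acting downstream of Neurog3, peaked with it at E14.5. Its libraries had 2.31, 0.977 and 1.94 CPM at E12.5, 6.38, 4.86 and 8.17 CPM at E14.5, 1.204, 2.13 and 0.522 CPM in ISC, and 1.51, 3.35 and 2.97 CPM in AE. The E14.5 libraries lay above all others, and the remaining groups overlapped with each other. The E14.5 rise was 3.63-fold (log2 1.86 ± 0.41, adjusted p = 0.00193), and ISC was 5.10-fold lower than E14.5 (log2 -2.35 ± 0.44, adjusted p = 0.000376). Without ISC replicate 2 the log2 change was -2.95. AE against ISC did not pass (log2 0.98 ± 0.48, adjusted p = 0.0894). The threshold was reached with DESeq2 (adjusted p = 0.0394), without ISC replicate 2 (log2 1.58, adjusted p = 0.0180) and without AE replicate 1 (log2 1.34, adjusted p = 0.0271). Of its 50-base stretches, 8.04% are shared with 1 other gene, 2 genes overlap it on the other strand, and the antisense gene Nkx2-2as had 14 counts at E12.5, 2 at E14.5 and 0 in the adult groups.

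The same endocrine factors mark the embryonic pancreas, and pancreas markers moved with them between embryonic replicates. At E14.5, replicate 3 was the highest library for all 6 endocrine factors, and the 20 pancreas markers summed there to 219.5 CPM, beside 85.3 and 61.1 CPM in replicates 1 and 2. Ctrb1, an acinar enzyme precursor, made up the larger share, with 49.9, 32.2 and 128.1 CPM. Ins1 had 0.748, 0.254 and 5.58 CPM and Mafa was at 0. At E12.5 the marker sum was 49.6, 21.5 and 27.4 CPM, with replicate 1 highest, as it was for Neurog3, Neurod1, Pax4, Pax6 and Nkx2-2 at that stage. Of the 11 pancreas markers tested, 6 rose at E14.5 and 2 fell. Without E14.5 replicate 3, the E14.5 rises of Neurog3, Neurod1, Insm1 and Nkx2-2 were still called, and that of Pax4 was not (adjusted p = 0.084). That fit still held E14.5 replicates 1 and 2, with marker sums of 85.3 and 61.1 CPM. In ISC 11 of the 20 markers were at 0 and the sum was 7.92 to 9.21 CPM. In AE the sum was 59.3 to 183 CPM, with Ins1, Ins2 and Ptf1a at 0. The part of pancreas cells in the embryonic levels was not tested.

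Developing neurons also express Neurod1 and Insm1. The 15 enteric neural markers summed to 26.6 to 28.7 CPM at E12.5 and to 40.9, 39.8 and 34.1 CPM in E14.5 replicates 1, 2 and 3, where replicate 3 was lowest, the reverse of the endocrine factors. In ISC they summed to 5.89 to 6.59 CPM with 4 markers at 0, and in AE to 17.0 to 31.0 CPM with 3 markers at 0. Of the 14 tested, 4 rose and 2 fell at E14.5. The part of neural cells in the endocrine factors' levels was not tested.

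The 3 remaining comparisons share their libraries with those above. ISC against E12.5 called 6 members higher and 0 lower, beside 33.9% and 34.6% of all genes. Those higher were Atoh1 (log2 6.86, adjusted p = 1.02e-08), Gfi1 (2.85, 0.000893), Spdef (1.08, 0.00759), Neurog3 (1.49, 0.000996), Neurod1 (0.84, 0.0179) and Insm1 (1.36, 0.00114), with Spdef and Neurod1 libraries overlapping between the groups. Pax4, Pax6 and Nkx2-2 had log2 changes of 0.64, -0.89 and -0.49, none past the threshold. Neurod1 lost its call without E12.5 replicate 2 (adjusted p = 0.0679) or ISC replicate 2 (adjusted p = 0.102), and Spdef without ISC replicate 2 (adjusted p = 0.0650). Pax6 was called lower without E12.5 replicate 2 (adjusted p = 0.0421) or ISC replicate 1 (adjusted p = 0.0415).

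In AE against E14.5 the endocrine factors split in both directions, with 4 members higher and 3 lower beside 36.7% and 41.5% of all genes. Atoh1 was 4.74-fold higher (adjusted p = 1.05e-06), Neurod1 3.31-fold (adjusted p = 1.78e-05), Spdef 2.34-fold (adjusted p = 0.00126) and Pax6 2.21-fold (adjusted p = 0.0145). Neurog3 was 7.12-fold lower (adjusted p = 2.56e-06), Pax4 2.79-fold (adjusted p = 0.0299) and Nkx2-2 2.59-fold (adjusted p = 0.00867). Insm1 did not pass (log2 -0.29, adjusted p = 0.322). Pax6 missed the threshold without E14.5 replicate 1 (adjusted p = 0.0665) or 2 (adjusted p = 0.0748). Pax4 missed it without E14.5 replicate 3 (adjusted p = 0.0816) or AE replicate 2 (adjusted p = 0.0982) or 3 (adjusted p = 0.0870), and had a log2 change of -2.48 without AE replicate 1.

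Against E12.5, AE had 6 members higher and 0 lower, beside 38.4% and 43.7% of all genes. Atoh1 was 534-fold higher (adjusted p = 1.24e-10), or at least 481-fold above the floor without E12.5 replicate 1, and Neurod1 12.4-fold (adjusted p = 1.89e-08). Gfi1 (log2 3.97), Spdef (2.62), Insm1 (1.96) and Pax6 (1.97) were also higher. Neurog3 (log2 0.16, adjusted p = 0.691), Pax4 (0.11, adjusted p = 0.870) and Nkx2-2 (0.48, adjusted p = 0.329) were not called. These are the 3 members that were lower in AE than at E14.5.

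Levels of different genes can be compared only per transcript length, and were divided by the longest transcript with a RefSeq identifier in GENCODE M21. On this scale, in CPM per kilobase, Neurog3 had the highest mean of the 9 at E12.5 (1.41), E14.5 (11.3) and in ISC (4.01), and came at rank 5 in AE (1.57). Spdef (1.23) came next at E12.5, its libraries overlapping with those of Neurog3. At E14.5 Spdef (3.19), Nkx2-2 (3.05), Atoh1 (2.89) and Neurod1 (2.80) followed Neurog3 within each other's spread, and Gfi1 was lowest (0.735). In ISC Atoh1 (2.96) and Spdef (2.60) followed, their libraries overlapping with those of Neurog3, and Pax6 was lowest (0.258). In AE Atoh1 (13.7) led, followed by Neurod1 (9.16) and Spdef (7.46) with no overlap between these 3, and Pax4 was lowest (0.606).

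Ratios of factors within a library do not depend on its scaling, and they were chosen after the levels had been seen and given no test. Per kilobase, Neurod1 stood at 0.449 to 0.729 of Neurog3 at E12.5, at 0.201 to 0.319 at E14.5 and at 0.314 to 0.346 in ISC, but at 4.31 times Neurog3 or more in every AE library. Atoh1 stood at 0.0306 of Neurog3 in E12.5 replicate 1 and at 0 in the other two, at 0.241 to 0.268 at E14.5, at 0.541 and 0.665 in ISC replicates 1 and 2, above 1 in ISC replicate 3 and at 5.86 to 22.3 in AE. Pax6 stood at 0.467 to 0.900 of Pax4 at E12.5, 0.334 to 0.529 at E14.5, 0.117 to 0.628 in ISC and 1.52 to 5.94 in AE. The AE ratios of 5.94 and 4.84, in replicates 2 and 3, rested on 6 and 4 counts of Pax4. ISC replicate 3 had 7 counts of it, and AE replicate 1, with the ratio of 1.52, had 44. In all 3 ratios every AE library lay above every library of the other groups. The ratio of Spdef to Atoh1 was 21 in E12.5 replicate 1, on 4 counts of Atoh1, and had no value in replicates 2 and 3, where Atoh1 was at 0. It was 1.00 to 1.29 at E14.5, 0.449 to 1.16 in ISC and 0.457 to 0.686 in AE.

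**Figure D3:**
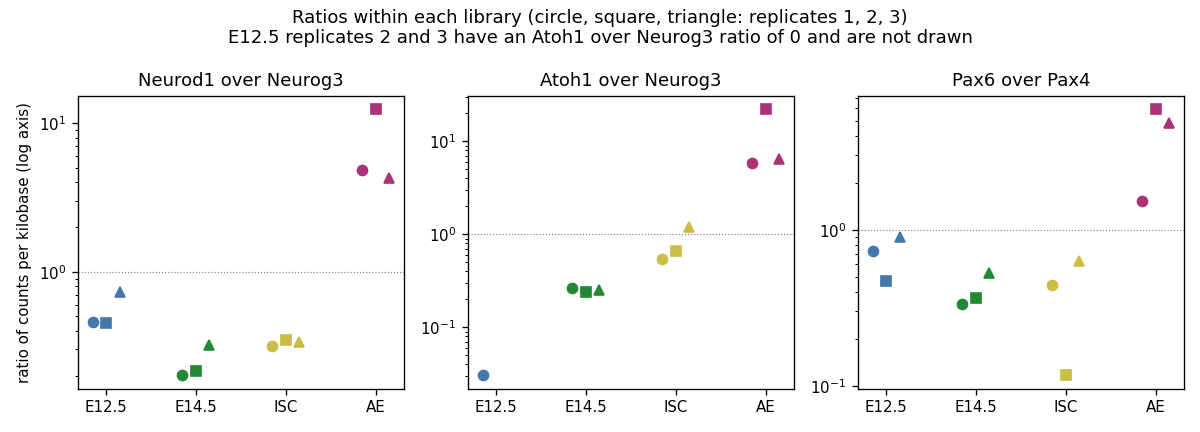
Ratio of counts per kilobase of transcript within each library (log axis) for Neurod1 over Neurog3, Atoh1 over Neurog3 and Pax6 over Pax4, with circle, square and triangle for replicates 1, 2 and 3 and the dotted line at 1. All 3 AE libraries lie above 1 in each panel, and the E14.5 libraries lie below 1.

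The factors were set beside the products of the cells they direct. The sum of Atoh1, Gfi1 and Spdef was 2.62 ± 0.768 CPM at E12.5, 14.4 ± 1.02 CPM at E14.5, 12.9 ± 3.14 CPM in ISC and 46.7 ± 9.01 CPM in AE. Goblet-cell products summed to 83.2 ± 24.6, 666 ± 20.5, 2468 ± 122 and 28640 ± 6983 CPM in the same order. Of these sums, the mucin Muc13 alone made up 44.4, 432, 1038 and 3098 CPM, so the first 3 rest largely on that gene. The factor sums overlapped between E14.5 and ISC, while the product sums did not. Of 15 goblet products tested, 11 rose and 0 fell at E14.5, 14 were higher and 1 lower in ISC than at E14.5, and 14 were higher and 0 lower in AE than in ISC. Their median log2 changes were 2.79, 1.49 and 3.42. Clca3 rose from 0.112 to 6.93 CPM at E14.5, and Muc2, the main intestinal mucin, from 3.38 CPM at E14.5 to 649 CPM in ISC.

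Paneth-cell products are mostly antimicrobial proteins of a cell type that forms after birth in the mouse. They summed to 4.82 ± 0.635 CPM at E12.5, 16.5 ± 0.576 CPM at E14.5, 3350 ± 920 CPM in ISC and 4344 ± 2351 CPM in AE. Sntb1, a listed gene that is not antimicrobial, made up 3.79, 6.14, 0.777 and 0.504 CPM of these sums, most of the E12.5 sum. Of 11 tested, 4 rose at E14.5, 10 were higher and 1 lower in ISC than at E14.5, and none differed between AE and ISC by the test. Lysozyme (Lyz1) had 0.693, 8.52, 2848 and 3772 CPM in the 4 groups. Olfm4, a crypt stem-cell marker, had 5743 CPM in ISC and 606 CPM in AE. The part of crypt cells in the AE levels of the factors was not tested.

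The sum of the 6 endocrine factors was 9.07 ± 2.53 CPM at E12.5, 41.1 ± 8.71 CPM at E14.5, 15.6 ± 5.58 CPM in ISC and 40.0 ± 0.495 CPM in AE. Enteroendocrine products summed to 275 ± 15.9, 220 ± 52.9, 293.5 ± 47.5 and 2473 ± 487 CPM. These sums mix opposite changes: Cacna1a had 92.05, 25.56, 100.3 and 30.69 CPM in the same order, and Chgb 31.3, 81.1, 110 and 865 CPM. E14.5 and AE overlapped in the factor sum and not in the product sum. Of 23 products tested, 8 rose and 4 fell at E14.5, 9 were higher and 9 lower in ISC than at E14.5, and 20 were higher and 2 lower in AE than in ISC. Secretin (Sct) had 1.26, 18.4, 0.907 and 123 CPM in the 4 groups, with a log2 rise of 3.86 at E14.5. Proglucagon (Gcg) fell 6.11-fold at E14.5, from 19.0 to 3.20 CPM, and Gip, an incretin hormone, was 192-fold higher in AE than in ISC.

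**Figure D4:**
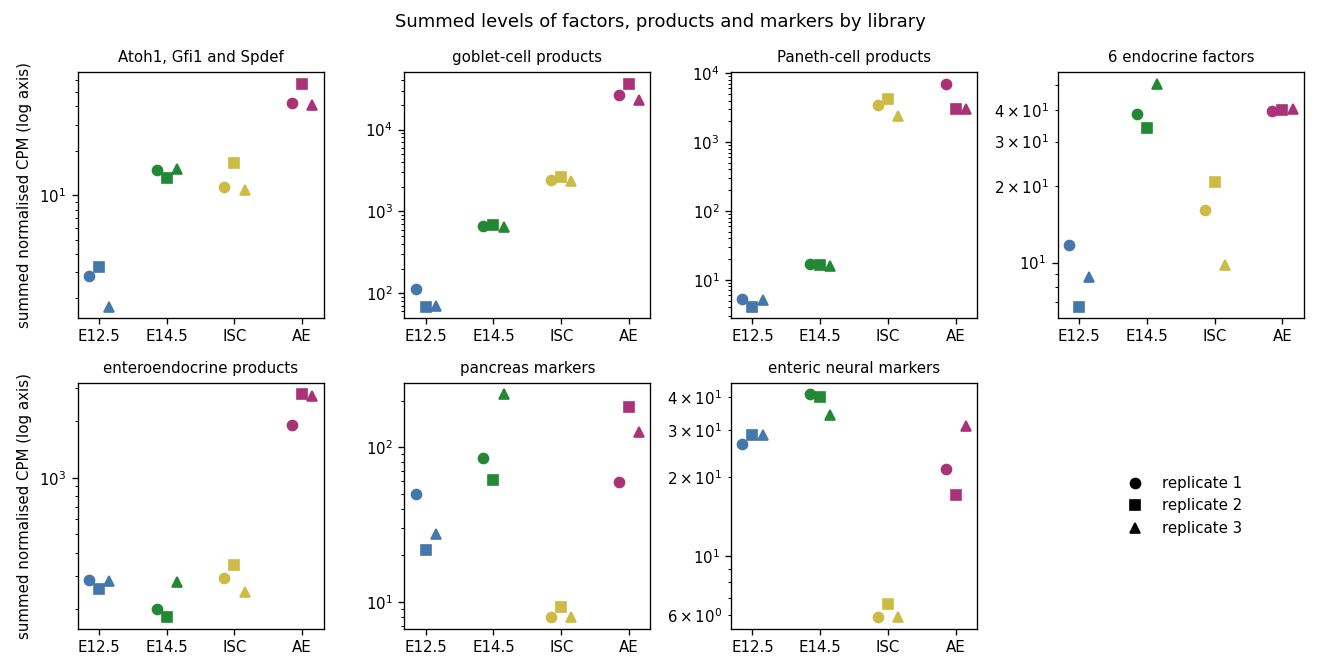
Summed normalised CPM (log axes) in each of the 12 libraries for the goblet and Paneth branch factors Atoh1, Gfi1 and Spdef, for the 6 endocrine factors, and for goblet-cell, Paneth-cell and enteroendocrine products and pancreas and enteric neural markers, with symbols by replicate. The endocrine factor sum is near 40 CPM at E14.5 and in AE, while enteroendocrine products are 181 to 280 CPM at E14.5 and 1911 to 2781 CPM in AE.

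Other factors of the same lineages did not all follow the 9. Of 11 further goblet and Paneth factors tested, 6 rose and 3 fell at E14.5, 7 were higher and 2 lower in ISC than at E14.5, and 4 were higher and 4 lower in AE than in ISC, with median log2 changes of 0.27, 1.12 and 0.26. Creb3l1, a membrane-bound factor of secretory cells, rose from 2.65 to 15.9 CPM at E14.5, and Foxa1 fell from 207 to 65.9 CPM. In AE, Sox9, a crypt and Paneth factor, was 8.49-fold lower than in ISC and Hnf4g 9.17-fold higher. Hnf4g had 1491 CPM in AE, of 2415 CPM summed over this list, in the group where enterocyte markers were also highest. Whether its level there came from secretory cells was not tested.

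Of 19 further enteroendocrine factors tested, 4 rose and 7 fell at E14.5, 3 were higher and 9 lower in ISC than at E14.5, and 12 were higher and 6 lower in AE than in ISC, with medians of 0.11, -1.09 and 1.32. St18 rose with the members at E14.5, from 1.50 to 5.22 CPM. Rfx6, which is required for endocrine cells and is also expressed in early gut endoderm, went the other way, falling from 121 ± 13.7 to 20.2 ± 0.669 CPM (log2 -2.59 ± 0.15, adjusted p = 2.86e-08). Lmx1a, a factor of serotonin-producing cells, was 8.44-fold higher in AE than in ISC.

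Notch signalling restrains Atoh1, and 21 of its genes were tested. At E14.5, 10 rose and 6 fell. In ISC 9 were higher and 9 lower than at E14.5, and in AE 1 was higher and 9 lower than in ISC, with median log2 changes of 0.50, 0.26 and -0.51. Dll1, a Notch ligand that secretory progenitors display, had 2.05, 1.82 and 2.94 CPM at E12.5 and 19.0, 18.0 and 19.1 CPM at E14.5, a rise of 8.19-fold (log2 3.03 ± 0.21, adjusted p = 8.69e-08). The groups did not overlap, and the step coincided with that of Atoh1. Dll4, a ligand of the same family, rose 5.05-fold, from 1.11 to 5.63 CPM. The receptors Notch1 and Notch2 were 7.09-fold and 4.50-fold lower in AE than in ISC.

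The genes whose pattern over the 12 libraries lay closest to each member were found by the root-mean-square difference in centred log2 CPM among 14554 genes. Eps8l3 (0.652), H2-T3 (0.693) and Ms4a18 (0.697) were nearest to Atoh1, whose nearest fellow member was Gfi1 at rank 527. Neurog3 lay nearest to Epb4.2 (0.591), Syngr1 (0.632) and Tdrd12 (0.639), and its nearest member was Pax4 at rank 40. Pax6 lay nearest to Dynlt1a (0.373). The nearest to Nkx2-2 was Runx1t1 (0.484), also on the enteroendocrine factor list. Dao (0.344) was nearest to Neurod1, Gfra3 (0.330) to Insm1, Fkbp11 (0.517) to Pax4, Pmaip1 (0.655) to Gfi1 and 2410015M20Rik (0.230) to Spdef. For none of the 9 was another member among the 3 nearest genes.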

How the data were processed

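RNA-seq gene counts were available for 12 libraries. Per the labels' protocols, RNA came from 50000 sorted cells, and 50 ng of total RNA was amplified with an Ovation kit before NEBNext library preparation. The authors deposited raw counts per gene symbol, 1 file per library. The submitters' processing notes name the mm9 build and the tools STAR 2.3.1z13, HTSeq 0.6.1p1, DESeq2 1.6.3, bcl2fastq 1.8.4 and SAMtools 1.2. What each did, which annotation was counted and whether strand was used is not given in the sources used here. Entries without a gene name were left out of every total and test: reads outside genes were 33.4% to 58.1% of those listed, not uniquely aligned reads 3.06% to 5.96% in E12.5 and ISC and 0% in E14.5 and AE, and ambiguous reads 0.531% to 1.00%.

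Tests used edgeR 4.0.16 (R 4.3.3): expression filter by group (15342 genes kept), TMM scaling (factors 0.696 to 1.16), 1 coefficient per group over all 12 libraries, quasi-likelihood F tests and Benjamini-Hochberg adjustment over all genes at 0.05. Levels are TMM-normalised CPM, and fitted fold changes use a prior count of 0.125. Against libraries at 0, folds are bounds relative to 3 counts summed over those libraries. Such bounds allow for counting error alone, because amplification copies molecules. Groups were taken from titles. The tests were also run on simulated counts with known changes. Alternatives were other scalings, DESeq2 1.42.0, no filter, only the 6 libraries compared, a replicate block, each library left out and other onset levels.

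The members, 15 gene lists (227 entries, 224 matched) and the motifs were chosen with earlier results of these data known. Named from each list were up to 3 genes with the largest change past the threshold, with 2 CPM or more in the higher group, and marker genes with their levels. For likeness, the 3 nearest genes of at least 1 CPM in their highest group were taken, on log2 CPM with a prior count of 2. Some genes covered by these rules are not reported here. GENCODE M21 (GRCm38) gave lengths and shared stretches only, since it is a later build than that of the counts. Promoters are RefSeq's, on GRCm38.p6.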

Additional observations from a re-analysis of the deposited data

How the results depend on the processing

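Of the members' log2 changes recomputed under other settings, 605 kept their direction and side of the threshold. With the direction kept, 14 gained a call and 13 lost one, and 15 turned their sign. No call of a member turned its direction. The signs that turned were all of changes not called in the analysis reported. For Atoh1 in ISC against E14.5, the log2 change was -0.011 under relative log expression scaling, -0.00055 under upper-quartile scaling and -0.014 with DESeq2, and ran from -0.063 to 0.18 on leaving out 1 library. For Neurog3 in AE against E12.5, it was -0.098 under upper-quartile scaling and ran from -0.093 to 0.50. For Pax4 in AE against E12.5, it was -0.14 under upper-quartile scaling and -0.021 with DESeq2, and ran from -0.90 to 0.40. For Pax4 it ran from -1.53 to 0.36 in AE against ISC and from -0.26 to 1.14 in ISC against E12.5. The cause was not tested.

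The number of members on at E12.5 was 3 as reported, 7 at 0.5 CPM and 0 at 2 CPM, and 3 to 5 on leaving out a library. The number called lower in ISC against E12.5 was 0 to 1 on leaving out a library. In the fit on only the 6 libraries of AE and E12.5, Gfi1 was not tested, and 5 members were higher in place of 6. Upper-quartile scaling moved the median log2 change of all genes from -0.05 to -0.25 in AE against ISC, from -0.12 to -0.37 in AE against E14.5 and from -0.15 to -0.42 in AE against E12.5, and changed no member's call.

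Replicate numbers are shared between groups, but no source says that they mark a shared animal or day. Same-numbered libraries deviated together with correlations of -0.0806 to 0.0796, and only in ISC against E12.5 did all 3 correlate best with their own number. With the replicate block, the members' calls were 8 higher at E14.5, 5 lower in ISC against E14.5, and 4 higher and 1 lower in AE against ISC, as without it, and the calls over all genes in these comparisons were 7258, 9103 and 10229 in place of 7544, 9319 and 10397.

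Depth limits the low members most. Atoh1 and Gfi1 rested on 4 and 18 counts at E12.5, and Gfi1 on 5 in AE replicate 3. Pax4 had 6 and 4 counts in AE replicates 2 and 3 and 7 in ISC replicate 3. Pax6 had 20, 13 and 10 counts in ISC replicates 1, 2 and 3.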

Other observations

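Tuft cells are a chemosensory type with a master factor of their own, Pou2f3. Their 12 genes summed to 17.4 ± 0.454 CPM at E12.5, 17.9 ± 0.876 CPM at E14.5, 49.6 ± 8.49 CPM in ISC and 82.8 ± 9.77 CPM in AE. Of 10 tested, 3 rose and 3 fell at E14.5, beside 23.6% and 25.6% of all genes called higher and lower. In ISC 8 were higher and 1 lower than at E14.5, and 5 were higher and 1 lower in AE than in ISC. Pou2f3 rose from 3.45 to 6.47 CPM at E14.5 (adjusted p = 0.00371, edgeR) while Dclk1, a kinase used as a tuft marker, fell from 2.61 to 0.912 CPM (adjusted p = 0.000107). In AE, Pou2f3 was 2.38-fold lower than in ISC and Dclk1 2.38-fold higher.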
